A study of Mus musculus with 10 samples.

Results

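The transcripts described here are those of 10 integrin subunits in precursors of conventional dendritic cells (cDCs) of the mouse spleen. The subunits are Itgal, Itgam, Itgax and Itgb2, which form the beta2 family, Itga4, Itgae and Itgb7, which form the beta7 family, and Itgav, Itgb8 and Itgb1. They were found by gene name in a table of 52550 genes, and the rule uses no measured value, although the names had been proposed with earlier results of these data known. The 10 names matched 11 gene IDs, because 2 IDs carry the name Itgam. A filter on low values (log2 RPKM above 0 in at least 2 libraries) was passed by 9 of the 10 subunits, and Itgb8 did not pass it.

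RNA had been sequenced from 2 kinds of precursor, pre-cDC2 and pre-cDC1, which are committed to the cDC2 and cDC1 lineages. Each came from CD11c-cre Adam10fl/fl mice (KO) and from wild-type mice (WT), all of strain C57BL/6. In the KO, Cre is made under the CD11c promoter and acts on floxed Adam10, the gene of a membrane protease that sheds surface proteins. CD11c is the protein of Itgax, so the promoter that drives the Cre belongs to one of the subunits described. There were 2 KO pre-cDC2 libraries (replicates 1 and 2), 2 WT pre-cDC2 libraries (replicates 2 and 3), 3 KO pre-cDC1 libraries and 3 WT pre-cDC1 libraries (replicates 1 to 3 each). Values of a group are given below in this order of replicates. Neither the ages of the mice nor the sort gates were stated in the sources used. Whether replicates came from separate animals is not said in the labels, and p-values thus measure only the spread between libraries, which may be technical. The values are log2 RPKM, the log2 of reads scaled to the length of the gene and to the size of the library. Whole reads per library could be recovered from them (7862449 to 13177686 reads). The library sizes implied by the values were these totals times a normalization factor, scaled to a geometric mean of 1. That factor was 0.917 to 0.968 in the pre-cDC1 libraries and 1.056 to 1.14 in the pre-cDC2 libraries. A larger factor lowers all values of a library.

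Integrins are adhesion receptors made of an alpha and a beta chain, and a chain reaches the cell surface only once it is paired. Itgb2 encodes CD18, which pairs with the alpha chains of Itgal (CD11a, giving LFA-1, a receptor for ICAMs), Itgam (CD11b, giving Mac-1, a receptor for complement fragments), Itgax (CD11c) and Itgad (CD11d). Itgb7 pairs with Itga4 (giving a receptor for the gut addressin MAdCAM-1) and with Itgae (CD103, giving a receptor for E-cadherin), and Itga4 also pairs with Itgb1 (giving VLA-4, a receptor for VCAM-1 and fibronectin). Itgav pairs with Itgb8 and other beta chains and takes part in the activation of latent TGF-beta. In the mouse spleen, CD11c marks dendritic cells in general, CD11b marks cDC2, and CD103 is carried by many cDC1.

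The genes of 3 alpha chains of the beta2 family lie side by side on chromosome 7 of GRCm38, all on the plus strand. Itgam (ENSMUSG00000030786.18) spans chr7:128062640-128118491, Itgax (ENSMUSG00000030789.9) spans chr7:128129547-128150657, and Itgad follows at chr7:128154376-128223816. Itgal (ENSMUSG00000030830.18) lies further off at chr7:127296260-127335138, plus strand, and Itgb2 (ENSMUSG00000000290.13) lies at chr10:77530252-77565708, plus strand. Of the beta7 family, Itgae (ENSMUSG00000005947.11) lies at chr11:73090583-73147446, plus strand, Itga4 (ENSMUSG00000027009.18) at chr2:79255426-79333123, plus strand, and Itgb7 (ENSMUSG00000001281.9) at chr15:102215995-102231944, minus strand. Itgav (ENSMUSG00000027087.11) lies at chr2:83724397-83806916, plus strand, Itgb1 (ENSMUSG00000025809.15) at chr8:128685654-128733200, plus strand, and Itgb8 (ENSMUSG00000025321.14) at chr12:119158022-119238802, minus strand.

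The promoters below are those of the neighbours Itgam and Itgax, whose levels followed different patterns, and of Itga4, Itgav and Itgb7, which were lower in pre-cDC2 than in pre-cDC1 in both genotypes. Each is the 250 bases before the RefSeq start site (GRCm38.p6), read 5′ to 3′ on the gene's own strand. The table of promoters held 7 of the 10 subunits. Capitals mark GAGGAA, a core of sites of the myeloid factor PU.1, or the core of RUNX sites TGTGGT, each searched on both strands (TTCCTC and ACCACA on the other strand), and no such matches overlapped.
Itgam: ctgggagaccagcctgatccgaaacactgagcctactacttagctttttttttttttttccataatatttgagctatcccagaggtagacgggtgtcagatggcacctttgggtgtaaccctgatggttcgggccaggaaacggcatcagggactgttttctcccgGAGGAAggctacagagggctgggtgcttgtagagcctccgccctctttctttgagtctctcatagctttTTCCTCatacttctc
Itgax: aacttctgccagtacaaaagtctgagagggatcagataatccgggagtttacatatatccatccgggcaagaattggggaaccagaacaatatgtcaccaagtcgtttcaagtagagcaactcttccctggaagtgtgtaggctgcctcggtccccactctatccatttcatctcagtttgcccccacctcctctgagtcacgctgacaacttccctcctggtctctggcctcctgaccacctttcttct
Itga4: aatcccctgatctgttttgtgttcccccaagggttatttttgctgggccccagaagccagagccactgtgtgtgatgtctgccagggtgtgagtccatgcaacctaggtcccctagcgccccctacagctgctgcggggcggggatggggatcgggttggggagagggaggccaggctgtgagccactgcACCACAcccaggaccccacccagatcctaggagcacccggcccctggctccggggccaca
Itgav: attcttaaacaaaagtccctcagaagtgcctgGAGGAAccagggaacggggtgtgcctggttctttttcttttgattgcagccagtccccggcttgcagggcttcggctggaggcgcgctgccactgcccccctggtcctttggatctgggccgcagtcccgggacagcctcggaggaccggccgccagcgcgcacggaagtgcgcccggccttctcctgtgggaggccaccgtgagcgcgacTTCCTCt
Itgb7: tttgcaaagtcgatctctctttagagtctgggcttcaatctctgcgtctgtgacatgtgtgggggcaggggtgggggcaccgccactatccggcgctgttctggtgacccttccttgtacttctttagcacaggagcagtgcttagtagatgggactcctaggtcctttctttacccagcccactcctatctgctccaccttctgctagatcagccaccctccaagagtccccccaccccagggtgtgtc
The Itgam promoter (chr7:128062390-128062639, plus strand) held GAGGAA 84 bases before the start and its reverse complement 15 bases before it. The Itgax promoter (chr7:128129300-128129549, plus strand) and the Itgb7 promoter (chr15:102231936-102232185, minus strand) held neither motif. In the Itgav promoter (chr2:83724147-83724396, plus strand) GAGGAA stood 218 bases before the start and its reverse complement 7 bases before it. The Itga4 promoter (chr2:79255176-79255425, plus strand) held the RUNX core 60 bases before the start. Over all 32851 promoters of the same length, 23.3% held GAGGAA and 14.0% held TGTGGT on either strand. These are matches of letters and describe no binding.

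The labels of the cell types were checked against markers. Batf3, a transcription factor of cDC1, was between -2.65 and -0.26 log2 RPKM in pre-cDC2 and between 4.50 and 4.96 in pre-cDC1. Irf4, a transcription factor of cDC2, was between 4.11 and 5.81 log2 RPKM in pre-cDC2 and between -2.84 and 2.73 in pre-cDC1. Ly6c2 was between 9.22 and 9.62 in pre-cDC2 and between 2.70 and 3.80 in pre-cDC1. The library titles name the pre-cDC2 groups Ly6C and the pre-cDC1 groups DN, so Ly6c2 is no independent check of the labels. In transcripts of T cells and NK cells, 1 pre-cDC2 library, WT replicate 2, was far from the other 3: all 38 markers of these cells had reads in all 4 pre-cDC2 libraries, and their summed level was 4291 and 3996 RPKM in KO pre-cDC2, and 437 RPKM in WT replicate 2 and 5421 RPKM in WT replicate 3. In pre-cDC1 the sum was 116 to 119 RPKM in KO and 184 to 194 RPKM in WT. WT pre-cDC2 replicate 2 also differed in the 10 markers of plasmacytoid dendritic cells, whose sum was 448 and 551 RPKM in KO pre-cDC2 and 985 and 371 RPKM in WT pre-cDC2. Of these markers 9 were called higher in pre-cDC2 than in pre-cDC1 in KO and 8 in WT. Of 8 markers of cDC precursors 6 were called lower in pre-cDC2 in each genotype and 1 higher in KO. Over all genes tested, 20.8% were called between the cell types in KO and 11.5% in WT. The sum of the cDC precursor markers was 433 and 434 RPKM in KO pre-cDC2, 766 and 360 RPKM in WT pre-cDC2, 1738 to 1933 RPKM in KO pre-cDC1 and 1800 to 1828 RPKM in WT pre-cDC1. The sum of 12 cDC2 markers, Ly6c2 among them, was 1274 and 1341 RPKM in KO pre-cDC2 and 2083 and 1360 RPKM in WT pre-cDC2. In both sums WT replicate 2 was the highest pre-cDC2 library. Adam10 itself had 909 and 742 reads in KO pre-cDC2, 228 and 1261 in WT pre-cDC2, 9, 3 and 13 in KO pre-cDC1, and 28, 48 and 10 in WT pre-cDC1. These sums over the gene include exons outside the deleted part, so they do not check the deletion. In bulk libraries such as these, fewer cells of a type and less RNA per cell cannot be told apart.

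Itgb7 was the most abundant of the 10 transcripts per length in all 4 groups, followed by Itgb2 and then Itgb1. Mean levels of Itgb7 were 335 ± 12.6 RPKM in KO pre-cDC2 and 315 ± 17.0 RPKM in WT pre-cDC2 (SD, n = 2 each), and 477 ± 50.6 RPKM in KO pre-cDC1 and 567 ± 12.6 RPKM in WT pre-cDC1 (SD, n = 3 each). In KO pre-cDC2 the order went on with Itgal, Itgax, Itga4, Itgam, Itgav, Itgae and Itgb8. In WT pre-cDC2 Itgax and Itgal differed by 0.09 log2 RPKM in their means and overlapped between libraries, so their order there is not settled. In pre-cDC1 Itgae held the fifth place in KO, above Itgal, and the sixth in WT, below Itgal. All other neighbours in these orders were apart, in that the lowest library of the higher transcript lay above the highest library of the lower one. The place of Itgam is uncertain, because 68.7% of its exon bases are shared with a gene on the same strand, as described below. The 10 transcripts together held 93.7% to 97.8% of the summed RPKM of all 26 integrin subunits in each library.

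**Figure D1:**
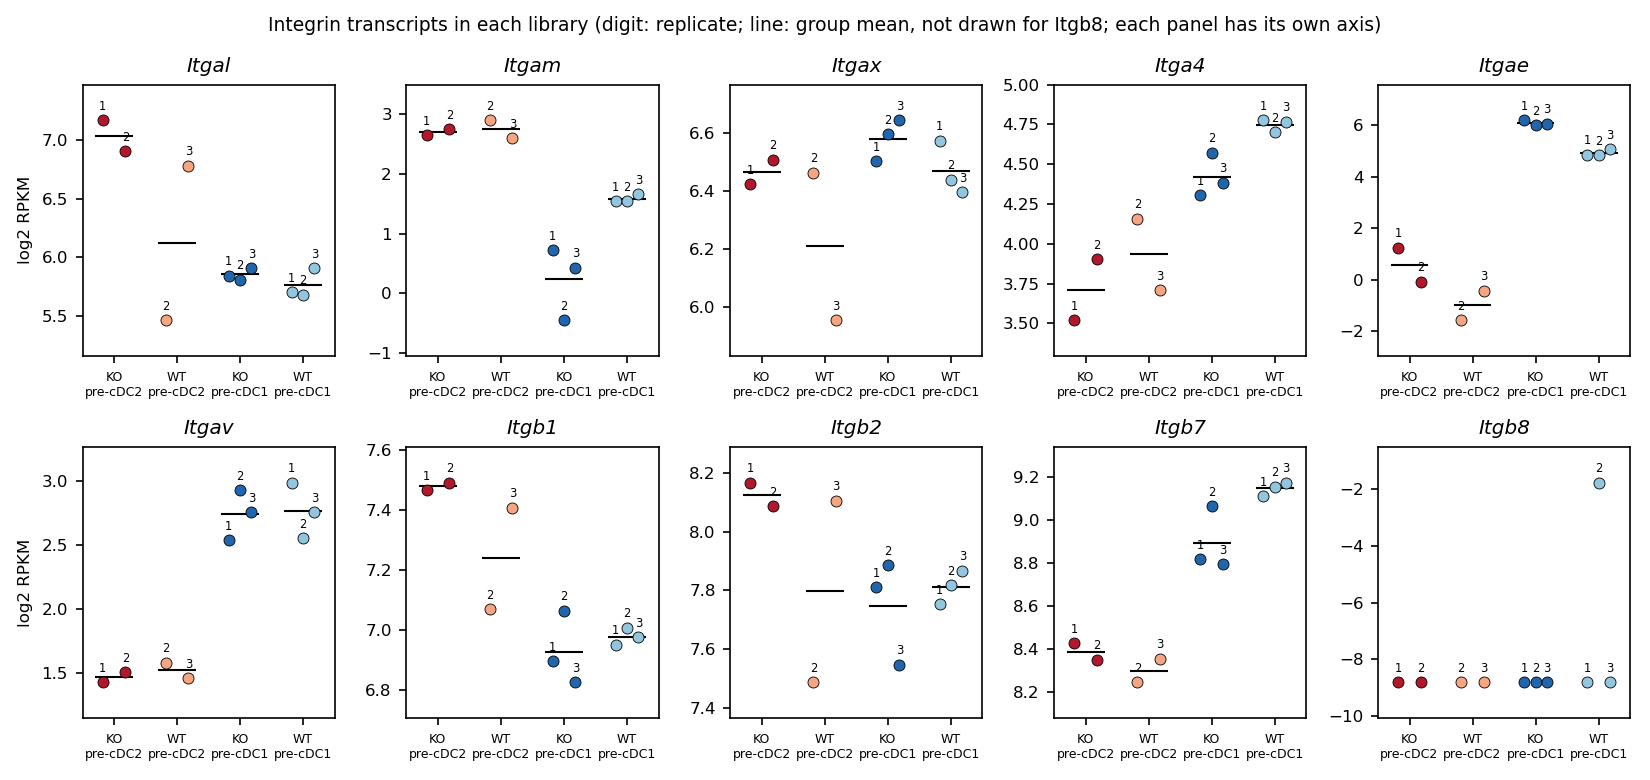
Level of each of the 10 integrin transcripts in log2 RPKM (vertical axis, 1 scale per panel) in KO and WT pre-cDC2 and KO and WT pre-cDC1, with 1 point per library, the replicate number above it and a line at the group mean (none for Itgb8). Itgae lies between -1.56 and 1.24 in the pre-cDC2 libraries and between 4.84 and 6.18 in the pre-cDC1 libraries, and the WT pre-cDC2 replicate 2 point lies apart in Itgal, Itgb1 and Itgb2.

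Between the cell types, Itgae was the subunit that differed most: it was lower in pre-cDC2 than in pre-cDC1 by 44.8-fold in KO and 59.8-fold in WT. Itgav, Itga4 and Itgb7 were also lower in pre-cDC2 in both genotypes, by 1.42-fold to 2.41-fold. Itgam, Itgal and Itgb1 were higher in pre-cDC2 in KO, by 5.52-fold, 2.27-fold and 1.46-fold. Itgax and Itgb2 did not pass the test in either genotype. Of the 9 tested transcripts, 3 were called higher and 4 lower in KO (limma adjusted p below 0.05 over 14787 genes), against a background of 20.8% of all genes called in this comparison (10.7% higher and 10.1% lower). In WT 4 were called lower and 0 higher, against 11.5% of all genes (4.88% higher and 6.59% lower). In WT, 5 of the 9 had an unadjusted p below 0.05, beside 3728 of the 14787 genes. Leaving out WT pre-cDC2 replicate 2 leaves WT pre-cDC2 with 1 library, the one with the highest sum of T and NK cell markers. In that fit the WT differences of Itgal, Itgb1 and Itgax were 1.02, 0.43 and -0.51 log2. The libraries of the cell types were apart for 8 of the 9 in KO, 4 higher and 4 lower, beside 51.7% of all genes (28.6% higher and 23.1% lower). In WT they were apart for 6 of the 9, 2 higher and 4 lower, beside 38.7% of all genes (20.2% higher and 18.5% lower). The median difference over the 9 was -0.12 log2 RPKM in KO and -0.26 in WT, beside 0.09 and 0.06 over all genes tested.

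**Figure D2:**
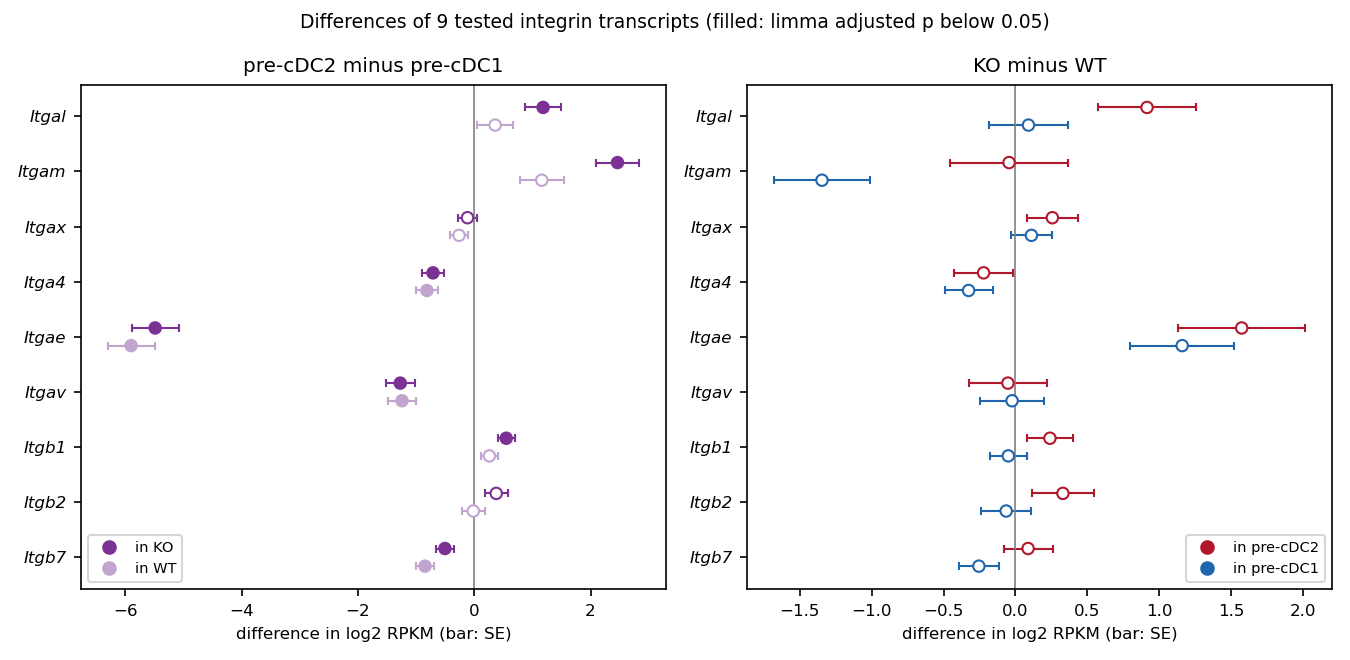
Differences in log2 RPKM (horizontal axis) for the 9 tested transcripts, pre-cDC2 minus pre-cDC1 on the left (dark purple for KO, light purple for WT) and KO minus WT on the right (red for pre-cDC2, blue for pre-cDC1), with bars of 1 SE from limma. Filled points have an adjusted p below 0.05: 7 in KO and 4 in WT on the left, and 0 on the right.

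Between the genotypes, none of the 9 tested transcripts passed the test in either cell type. The largest differences were those of Itgae and Itgam. Itgae lay higher in KO than in WT in both cell types, with no overlap between libraries in RPKM. Itgam lay lower in KO pre-cDC1. In pre-cDC1, 0 of 9 were called, against 4 of 14787 genes (0.0271%, all of them lower). An unadjusted p below 0.05 was found for 2 of the 9, Itgam and Itgae, beside 1335 of the 14787 genes. With voom, limma's weighting of counts, on the recovered reads the number called was also 0. KO and WT pre-cDC1 libraries were apart for 4 of the 9, 1 higher (Itgae) and 3 lower (Itgam, Itga4 and Itgb7), beside 17.2% of all genes (7.88% higher and 9.27% lower). In pre-cDC2, 0 of 9 were called, against 10 genes (0.0676%, with 0.0541% higher and 0.0135% lower). Itgal and Itgae had an unadjusted p below 0.05, beside 987 of the 14787 genes. By voom 0 of 9 were called as well. KO and WT pre-cDC2 libraries were apart for 3 of the 9, all higher in KO (Itgal, Itgae and Itgb1), beside 30.2% of all genes (15.6% higher and 14.6% lower). The test of whether the genotype difference differed between the cell types called 0 of 9, against 3 genes (0.0203%, with 0.0135% higher and 0.00676% lower). Itgam alone of the 9 had an unadjusted p below 0.05 there, beside 713 of the 14787 genes. The 2 comparisons between genotypes use different libraries, while each cell type comparison shares its libraries with them.

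Itgae, the alpha chain CD103 of the E-cadherin receptor, had 2.36 and 0.956 RPKM in KO pre-cDC2 (106 and 38 reads) and 0.339 and 0.751 RPKM in WT pre-cDC2 (21 and 38 reads). In pre-cDC1 it had 72.5, 63.8 and 66.1 RPKM in KO, and 28.8, 28.5 and 33.3 RPKM in WT. Each pre-cDC1 library lay far above each pre-cDC2 library, and each KO library lay above each WT library of its cell type. In pre-cDC2 the nearest libraries, KO replicate 2 and WT replicate 3, had 38 reads each and were apart only through the scaling to library size. WT pre-cDC2 replicate 2, the library low in T and NK cell markers, was the lowest of all. The difference of pre-cDC2 from pre-cDC1 was -5.49 ± 0.40 log2 in KO (SE, n = 2 and 3; limma adjusted p = 3.96e-05) and -5.90 ± 0.40 in WT (n = 2 and 3; adjusted p = 3.08e-05). The size moved with single libraries and with the scale: the KO value was -6.14 without KO pre-cDC2 replicate 1 and -4.83 without replicate 2, and with 1 RPKM added before the log2 it was -4.74 in KO and -4.35 in WT. KO minus WT was 1.16 ± 0.36 log2 in pre-cDC1 (2.23-fold, n = 3 and 3; adjusted p = 0.333), and the pre-cDC2 value was 1.57 ± 0.44 (2.98-fold, n = 2 and 2; adjusted p = 0.462). In pre-cDC1 the call depended on the fit: with the pre-cDC1 libraries alone the adjusted p was 0.0426. In pre-cDC2 the difference was 1.00 ± 0.44 without WT replicate 2 (adjusted p = 0.593) and 2.15 ± 0.45 without WT replicate 3 (adjusted p = 0.0303). Markers of erythroid cells moved with the same contrast: the summed level of the 10 markers was 46.2 to 85.7 RPKM in KO pre-cDC1 and 20.5 to 31.0 RPKM in WT pre-cDC1, and 55.3 and 96.3 RPKM in KO pre-cDC2 and 34.4 and 18.4 RPKM in WT pre-cDC2. Of the 10 markers, 2 were called higher in KO pre-cDC2 and 0 in KO pre-cDC1. Markers of cDC1, a type of which many cells carry CD103, also moved with Itgae in pre-cDC1: the sum of the 10 markers was 4968, 5144 and 4703 RPKM in KO and 4260, 3946 and 3996 RPKM in WT, and 9 of the 10 had higher means in KO, with 0 called. In pre-cDC2 that sum was 345 and 332 RPKM in KO and 470 and 328 RPKM in WT. The part of the erythroid and cDC1 markers in the Itgae differences was not tested.

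Itga4, the other alpha chain of the beta7 family, had 11.5 and 15.0 RPKM in KO pre-cDC2 and 17.9 and 13.1 RPKM in WT pre-cDC2. Its pre-cDC1 levels were 19.8, 23.8 and 20.9 RPKM in KO, and 27.4, 26 and 27.2 RPKM in WT. All pre-cDC2 libraries lay below all pre-cDC1 libraries. Pre-cDC2 minus pre-cDC1 was -0.71 ± 0.19 log2 in KO (adjusted p = 0.0252) and -0.81 ± 0.19 in WT (adjusted p = 0.0225). Without WT pre-cDC2 replicate 3 the WT difference was -0.59 ± 0.18 and missed the test (adjusted p = 0.0927), while without replicate 2 it was -1.04 ± 0.18 (adjusted p = 0.0067). The WT call was also lost when any WT pre-cDC1 library was left out (adjusted p between 0.0586 and 0.0711). The KO call was lost without KO pre-cDC1 replicate 2 or 3 or KO pre-cDC2 replicate 1 (adjusted p between 0.056 and 0.197). KO minus WT in pre-cDC1 was -0.33 ± 0.17 log2 (adjusted p = 0.616), with every KO library below every WT library. Of its exon bases, 8.0% are shared with Cerkl on the opposite strand, and the sources used do not state whether the counting used strand, so antisense reads cannot be told apart.

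Itgb7, the beta chain of both receptors, had 344 and 326 RPKM in KO pre-cDC2 and 303 and 327 RPKM in WT pre-cDC2. The pre-cDC1 libraries had 451, 535 and 444 RPKM in KO, and 553, 569.9 and 577 RPKM in WT. The pre-cDC2 libraries were thus the lower ones in both genotypes, and within pre-cDC1 the KO libraries lay below the WT libraries. The cell type difference was -0.50 ± 0.16 log2 in KO (adjusted p = 0.0478) and -0.85 ± 0.16 in WT (adjusted p = 0.00867), and KO minus WT in pre-cDC1 was -0.25 ± 0.14 (adjusted p = 0.645). The KO call was close to the threshold and was lost when any pre-cDC1 library or KO pre-cDC2 library was left out, with the adjusted p then between 0.0693 and 0.181. In a fit of the compared groups only, both calls were lost (adjusted p = 0.0632 in KO and 0.0543 in WT).

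The chains of Itga4 and Itgae pair with the same beta chain, and their shares were set beside each other. Itgae made up 17.1% and 6.00% of their summed RPKM in KO pre-cDC2 and 1.86% and 5.42% in WT pre-cDC2. In pre-cDC1 it made up 78.6%, 72.8% and 76% in KO, and 51.3%, 52.3% and 55.0% in WT. Itga4 was thus the more abundant alpha transcript in all pre-cDC2 libraries, and Itgae in all pre-cDC1 libraries. The level of Itgb7 was 24.9 and 20.5 times that of its alpha partners together in KO pre-cDC2 and 16.7 and 23.7 times in WT pre-cDC2, against 4.89, 6.11 and 5.10 times in KO pre-cDC1 and 9.83, 10.4 and 9.54 times in WT pre-cDC1. These shares rest on the values already tested and are a description.

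**Figure D3:**
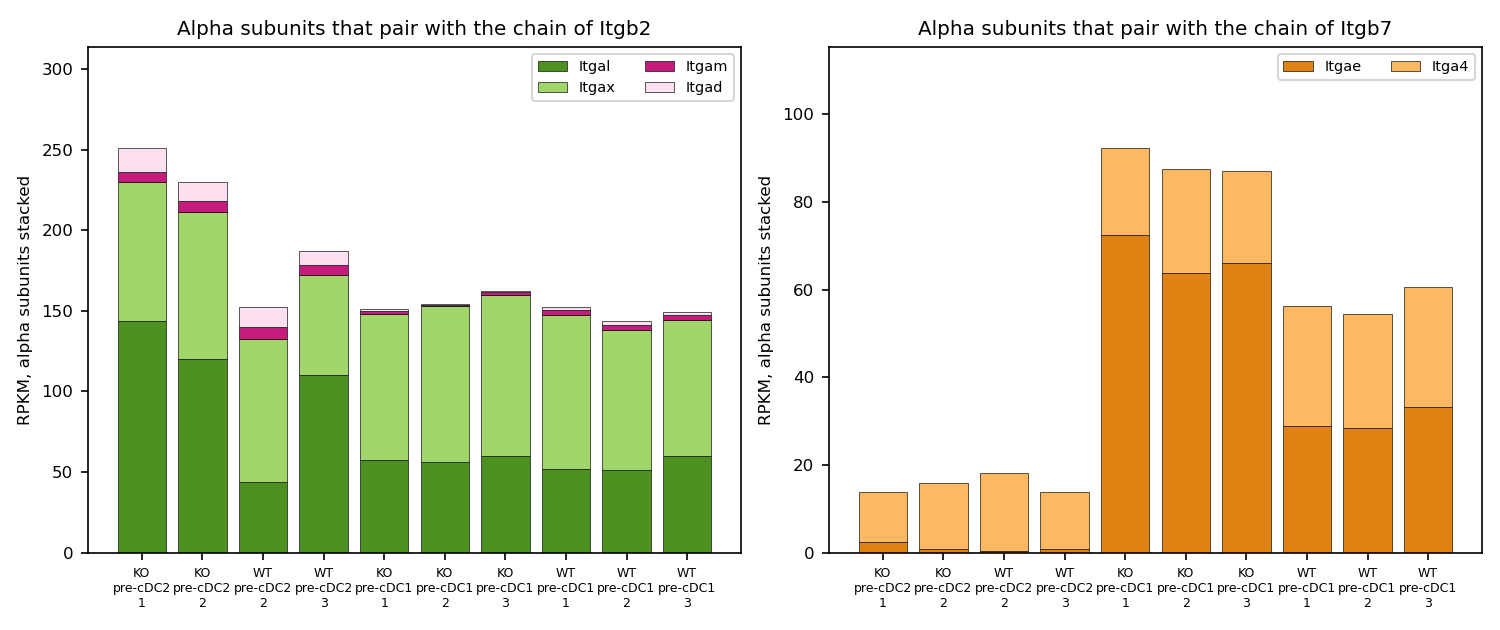
Stacked RPKM (vertical axis, from 0) of the alpha chains that pair with the chain of Itgb2 on the left and with that of Itgb7 on the right, with 1 bar per library. On the right Itgae is the larger part of each pre-cDC1 bar and a small part of each pre-cDC2 bar, and on the left Itgal is the larger part of 3 pre-cDC2 bars, with WT pre-cDC2 replicate 2 the exception.

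Itgam, the alpha chain CD11b, had 6.27 and 6.73 RPKM in KO pre-cDC2 (309 and 295 reads) and 7.44 and 6.03 RPKM in WT pre-cDC2 (513 and 337 reads). In pre-cDC1 it had 1.65, 0.734 and 1.35 RPKM in KO (85, 36 and 51 reads), and 2.91, 2.92 and 3.15 RPKM in WT (131, 131 and 161 reads). Every pre-cDC2 library lay above every pre-cDC1 library, and within pre-cDC1 every KO library lay below every WT library. The difference of pre-cDC2 from pre-cDC1 was 2.46 ± 0.38 log2 in KO (adjusted p = 0.0019; 1.76 with 1 RPKM added before the log2) and 1.16 ± 0.38 in WT (adjusted p = 0.0826), and the difference between these differences was 1.30 ± 0.53 (adjusted p = 0.987). The WT value passed the test with voom (adjusted p = 0.0178), with 1 RPKM added before the log2 (adjusted p = 0.0312) and when KO pre-cDC1 replicate 2 was left out (adjusted p = 0.0319). KO minus WT was -1.35 ± 0.34 log2 in pre-cDC1 (2.54-fold lower; adjusted p = 0.208), and the pre-cDC2 value was -0.04 ± 0.41 (adjusted p = 0.998). In pre-cDC1, markers of cDC2 moved with Itgam: 10 of 11 tested had lower means in KO, and the summed level of the 12 markers was 59.3 to 86.2 RPKM in KO pre-cDC1 and 249.1 to 293 RPKM in WT pre-cDC1, with 0 of them called. The sum of T and NK cell markers was also lower there in KO, as given above, with 1 of the 17 NK cell markers called, and the part of either in the Itgam difference was not tested. Markers of monocytes and macrophages, which carry CD11b, were lower there in KO in 8 of 9 tested, with 0 called, and the sum of the 12 markers was 1698, 1289 and 1620 RPKM in KO and 2088, 2251 and 2043 RPKM in WT. Their part was not tested either. Of the 5024 exon bases of Itgam, 3450 (68.7%) are shared with Gm49368, a gene on the same strand that the table also names Itgam and that had 0 to 21 reads per library. Reads in the shared exons could not be told apart, so the level of Itgam is uncertain.

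Itgal, the alpha chain of LFA-1, had 144 and 120 RPKM in KO pre-cDC2, and 44.1 and 110.1 RPKM in WT pre-cDC2. Its pre-cDC1 levels were 57.4, 56.1 and 60.0 RPKM in KO, and 52.1, 51.3 and 59.9 RPKM in WT. The lowest of all 10 libraries was WT pre-cDC2 replicate 2, and the other 3 pre-cDC2 libraries were the highest. Pre-cDC2 minus pre-cDC1 was 1.19 ± 0.31 log2 in KO (2.27-fold; adjusted p = 0.0247) and 0.36 ± 0.31 in WT (adjusted p = 0.524). The KO call was lost when any KO library was left out, and also with no filter (adjusted p = 0.185). The WT value turned on 1 library: it was 1.02 ± 0.14 without WT pre-cDC2 replicate 2 (adjusted p = 0.00238) and -0.30 ± 0.14 without replicate 3 (adjusted p = 0.282). KO minus WT in pre-cDC2 was 0.92 ± 0.34 log2 (adjusted p = 0.669), and it was 0.26 ± 0.15 without WT replicate 2 (adjusted p = 0.762) and 1.58 ± 0.15 without WT replicate 3 (adjusted p = 0.00215). Without WT replicate 3 the test of the difference between cell types also called Itgal (1.48 ± 0.18; adjusted p = 0.00947). The T and NK cell marker sum was low in the same WT replicate 2, and T and NK cells are known to carry LFA-1. The part of these markers in the Itgal values was not tested.

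Itgb2, the beta chain CD18 of the family, had 287 and 272 RPKM in KO pre-cDC2 and 179 and 275 RPKM in WT pre-cDC2. The pre-cDC1 libraries had 224, 236 and 187 RPKM in KO, and 216, 226 and 233 RPKM in WT. WT pre-cDC2 replicate 2 was the lowest library here too. The cell type difference was 0.38 ± 0.20 log2 in KO (adjusted p = 0.214) and -0.02 ± 0.20 in WT (adjusted p = 0.978). The WT value was 0.29 ± 0.15 without WT pre-cDC2 replicate 2 (adjusted p = 0.232), and the KO value passed the test when that library was left out of the shared fit (adjusted p = 0.0487) or when WT pre-cDC2 replicate 3 was (adjusted p = 0.0486). KO minus WT in pre-cDC2 was 0.33 ± 0.21 log2 (adjusted p = 0.827), with 0.02 ± 0.16 when WT replicate 2 was left out and 0.64 ± 0.16 when WT replicate 3 was (adjusted p = 0.0524).

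Itgax, the gene whose promoter drives the Cre, had 85.8 and 91.1 RPKM in KO pre-cDC2 and 88.2 and 62.1 RPKM in WT pre-cDC2. In pre-cDC1 it had 90.8, 96.7 and 100 RPKM in KO, and 95.2, 86.8 and 84.3 RPKM in WT. The libraries of the groups compared overlapped, WT pre-cDC2 replicate 3 being the lowest of all, and the means of the 4 groups spanned 0.37 log2 RPKM, the smallest range of the 9 tested transcripts. KO minus WT was 0.11 ± 0.14 log2 in pre-cDC1 (adjusted p = 0.896), and the value for pre-cDC2 was 0.26 ± 0.18 (adjusted p = 0.836). Pre-cDC2 minus pre-cDC1 was -0.12 ± 0.16 in KO (adjusted p = 0.669) and -0.26 ± 0.16 in WT (adjusted p = 0.361). Without WT pre-cDC2 replicate 2 the WT value was -0.51 ± 0.12 and passed the test (adjusted p = 0.0207).

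Among the alpha partners of Itgb2, Itgax held 34.2% and 39.6% of the summed RPKM in KO pre-cDC2 and 57.8% and 33.2% in WT pre-cDC2, and 60.1% to 62.8% in KO pre-cDC1 and 56.4% to 62.6% in WT pre-cDC1. Itgal held 57.4% and 52.2% in KO pre-cDC2 and 28.9% and 58.9% in WT pre-cDC2, and 36.4% to 38% in KO pre-cDC1 and 34.2% to 40.1% in WT pre-cDC1. Itgam held at most 4.88% of the sum in any library, a share as uncertain as its level, because most of its exon bases are shared with Gm49368. Itgb2 stood at 1.15 to 1.57 times its alpha partners together in the 10 libraries, a narrower range than that of Itgb7.

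**Figure D4:**
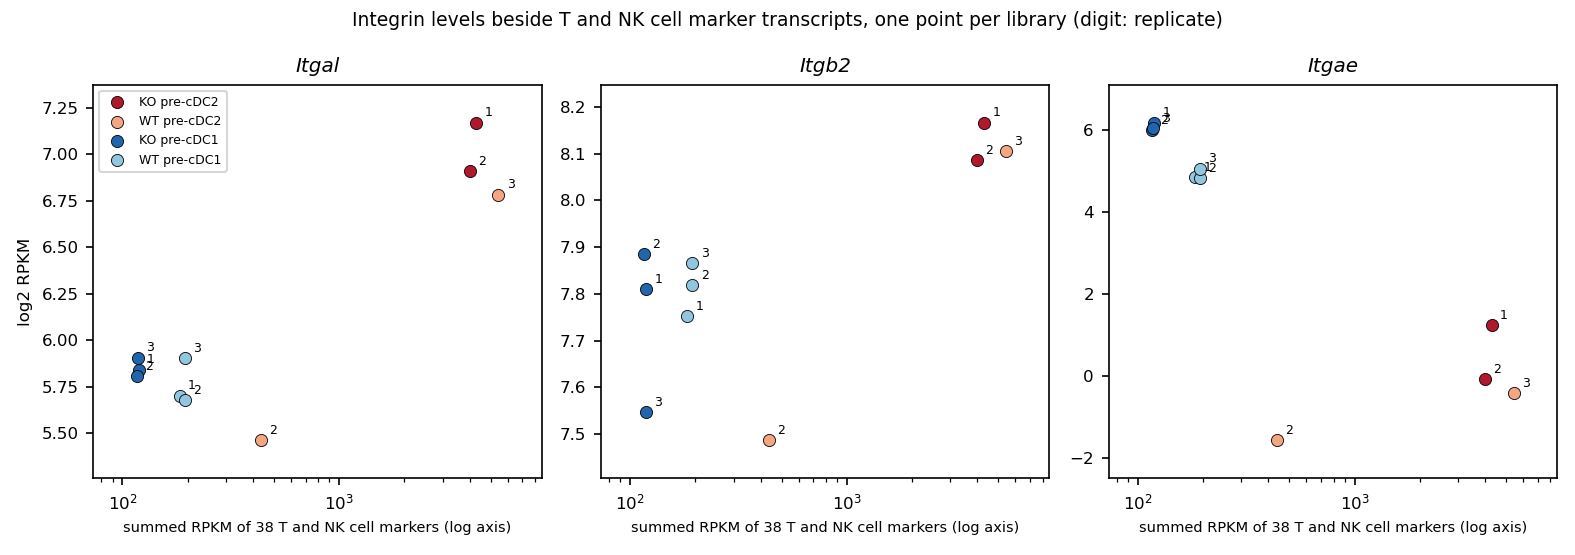
Level of Itgal, Itgb2 and Itgae in log2 RPKM (vertical axes) against the summed RPKM of 38 T and NK cell markers (horizontal log axis), with 1 point per library, coloured by group and numbered by replicate. WT pre-cDC2 replicate 2, at 437 RPKM of markers, has the lowest point of all libraries in each panel, and the other 3 pre-cDC2 libraries lie between 3996 and 5421 RPKM.

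Itgav, the alpha chain of receptors that activate latent TGF-beta, had 2.69 and 2.85 RPKM in KO pre-cDC2 and 2.996 and 2.75 RPKM in WT pre-cDC2. Its pre-cDC1 levels were 5.81, 7.62 and 6.75 RPKM in KO, and 7.92, 5.86 and 6.76 RPKM in WT. The cell types were apart and the genotypes overlapped within each. The cell type difference was -1.27 ± 0.25 log2 in KO (2.41-fold lower, adjusted p = 0.00644) and -1.24 ± 0.25 in WT (2.37-fold lower, adjusted p = 0.0122). Leaving out WT pre-cDC1 replicate 1 ended the WT call (-1.13, with an adjusted p of 0.0507). A fit of the compared groups only ended it too (adjusted p = 0.0725). The genotype difference was -0.02 ± 0.22 in pre-cDC1 (adjusted p = 1), and the pre-cDC2 value was -0.05 ± 0.27 (adjusted p = 0.992). Of its exon bases, 5.9% are shared with Gm13684 on the opposite strand.

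Itgb8, the beta chain that pairs with the alpha chain of Itgav, was at 0 reads in 9 libraries. WT pre-cDC1 replicate 2 had 29 reads (0.295 RPKM), while the other WT pre-cDC1 libraries had none. A count of 0 allows up to 3 reads in a library, so a level below that was not detectable, and these limits cover counting error only, as PCR reads without molecular identifiers are not independent molecules. No test was made and no fold is given.

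Itgb1, the beta chain shared by VLA-4 and many other integrins, had 177 and 179.8 RPKM in KO pre-cDC2 and 134 and 169.7 RPKM in WT pre-cDC2. The pre-cDC1 libraries had 119, 134 and 113 RPKM in KO, and 124, 129 and 126 RPKM in WT. All pre-cDC2 libraries lay above all pre-cDC1 libraries, WT pre-cDC2 replicate 2 by the smallest step (134.3 RPKM, against 133.7 RPKM in KO pre-cDC1 replicate 2). That library was the pre-cDC2 library low in T and NK cell markers, whose part in the Itgb1 values was not tested. Pre-cDC2 minus pre-cDC1 was 0.55 ± 0.14 log2 in KO (1.46-fold; adjusted p = 0.0246) and 0.26 ± 0.14 in WT (adjusted p = 0.301). In WT it was 0.43 ± 0.12 without WT pre-cDC2 replicate 2 and passed the test (adjusted p = 0.0428). KO minus WT in pre-cDC2 was 0.24 ± 0.16 log2 (adjusted p = 0.827), with 0.07 ± 0.13 when WT replicate 2 was left out and 0.41 ± 0.13 when WT replicate 3 was (adjusted p = 0.104). The KO call was lost without KO pre-cDC1 replicate 1 or 3 or either KO pre-cDC2 library (adjusted p between 0.0681 and 0.112). When each library was centred on the median of all tested genes, the KO cell type difference was 0.36 and missed the test (adjusted p = 0.103).

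Of the 16 other integrin subunits of the mouse, 10 passed the filter. In KO, 4 of them were called higher and 1 lower in pre-cDC2 than in pre-cDC1, beside 10.7% and 10.1% of all genes. In WT 2 were called higher and 3 lower, beside 4.88% and 6.59% of all genes. The median difference of these 10 other subunits was -0.08 log2 in KO and 0.23 in WT. Between the genotypes 0 of 10 were called in either cell type. Itgad, the alpha chain CD11d and the third neighbour on chromosome 7, had 14.8 and 11.9 RPKM in KO pre-cDC2, 12.7 and 8.83 RPKM in WT pre-cDC2, 1.21, 0.457 and 1.03 RPKM in KO pre-cDC1, and 1.98, 2.38 and 2.12 RPKM in WT pre-cDC1. Its pattern was thus high in pre-cDC2 and, within pre-cDC1, lower in every KO library than in every WT library, as that of Itgam was. The cell type difference was 4.001 ± 0.44 log2 in KO (adjusted p = 0.00036) and 2.299 ± 0.44 in WT (adjusted p = 0.00998). Its exons overlap antisense genes by up to 8.6% of their bases.

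Itgb3, a beta partner of the chain of Itgav, had 1177 and 815 reads in KO pre-cDC2, 762 and 878 in WT pre-cDC2, 10, 3 and 31 in KO pre-cDC1, and 62, 131 and 122 in WT pre-cDC1. The difference of pre-cDC2 from pre-cDC1 was 6.58 ± 0.88 log2 in KO (adjusted p = 0.000985) and 2.63 ± 0.88 in WT (adjusted p = 0.0914). Itga2, the alpha chain CD49b carried by NK cells, had 460 and 235 reads in KO pre-cDC2, 200 and 116 in WT pre-cDC2, 0 in each KO pre-cDC1 library, and 15, 0 and 0 in WT pre-cDC1. Against a floor of 3 reads per library it was at least 111-fold higher in KO pre-cDC2 than in KO pre-cDC1 (adjusted p = 0.00536). Itga6, the alpha chain of laminin receptors, was higher in pre-cDC2 by 1.51 ± 0.43 log2 in KO (adjusted p = 0.035) and 2.14 ± 0.43 in WT (adjusted p = 0.013). Lower in pre-cDC2 was Itga8, another alpha chain of RGD-binding receptors, with 1 and 14 reads in KO pre-cDC2, 29 and 0 in WT pre-cDC2, 480 to 743 in KO pre-cDC1, and 415 to 670 in WT pre-cDC1 (adjusted p = 0.0145 in KO and 0.0142 in WT). Itga1 and Itga2b were called lower in pre-cDC2 in WT, with differences of -1.91 ± 0.43 and -4.27 ± 0.84 log2. Itga2b had 2 and 5 reads in WT pre-cDC2 and 65, 66 and 31 reads in WT pre-cDC1, and its difference was -3.53 ± 0.85 without WT pre-cDC2 replicate 2 (adjusted p = 0.0247). Itga3, Itga5 and Itgb5 did not pass the test in any comparison.

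The machinery around the receptors was followed in 4 further lists. Between the cell types, 20.8% of all genes were called in KO (10.7% higher and 10.1% lower) and 11.5% in WT (4.88% higher and 6.59% lower). The calls of each list are to be read beside these shares. Some genes of the lists are also expressed by T and NK cells. The part of the T and NK cell markers, whose sum was higher in every pre-cDC2 library than in every pre-cDC1 library, was not tested for them. The median differences of pre-cDC2 from pre-cDC1 were 0.36 log2 in KO and 0.33 in WT for activation, 0.13 and -0.09 for restraint, 0.11 and 0.05 for adhesion signalling, and 1.38 and 1.54 for ligands, beside 0.09 in KO and 0.06 in WT over all genes tested. Of 14 genes of integrin activation, 11 were tested: 4 were called higher and 2 lower in pre-cDC2 in KO, and 4 higher and 1 lower in WT (3 higher and 1 lower without WT pre-cDC2 replicate 2). Rasgrp2, the exchange factor CalDAG-GEFI that activates Rap1, had 2055 and 1696 reads in KO pre-cDC2, 2378 and 1949 in WT pre-cDC2, 32, 103 and 100 in KO pre-cDC1, and 213, 333 and 310 in WT pre-cDC1. Its cell type difference was 4.73 ± 0.55 log2 in KO (adjusted p = 0.000512) and 2.54 ± 0.55 in WT (adjusted p = 0.0185). The WT call was lost without WT pre-cDC2 replicate 2, with a difference of 2.55 ± 0.75 (adjusted p = 0.0541). Fyb (the adaptor ADAP) and Rassf5 (the Rap1 effector RAPL) were higher in pre-cDC2 in both genotypes, Fyb by 1.60 ± 0.21 log2 in KO and 1.35 ± 0.21 in WT, and Rassf5 by 0.93 ± 0.14 in KO and 0.59 ± 0.14 in WT. Skap1, a partner of ADAP in T cells, had 1717 and 1533 reads in KO pre-cDC2, 184 and 2723 in WT pre-cDC2, 1 to 13 in KO pre-cDC1, and 7 to 17 in WT pre-cDC1. The low WT pre-cDC2 library was replicate 2, the one low in T and NK cell markers, whose part in the Skap1 values was not tested. The Skap1 difference in WT was 5.68 ± 1.26 log2, and 7.77 ± 1.17 without that library.

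Of 7 genes of integrin restraint, all were tested: 2 were called higher and 2 lower in pre-cDC2 in KO, and 1 higher and 0 lower in WT. Rasa3, a GTPase-activating protein that acts on Rap1, was higher in pre-cDC2 by 1.18 ± 0.19 log2 in KO (adjusted p = 0.00238) and 0.98 ± 0.19 in WT (adjusted p = 0.0103). Sipa1, another Rap1 GTPase-activating protein, was higher in pre-cDC2 among KO libraries by 1.11 ± 0.20 (adjusted p = 0.00412), while the adaptor Dok1 was lower in pre-cDC2 among KO libraries by a log2 difference of -1.31 ± 0.32 (adjusted p = 0.018). Of 18 genes of adhesion signalling, 14 were tested, with 3 called higher and 3 lower in KO and 2 higher and 2 lower in WT. Parvg, a parvin of blood cells, was lower in pre-cDC2, with log2 differences of -1.40 ± 0.22 in KO (adjusted p = 0.00216) and -1.82 ± 0.22 in WT (adjusted p = 0.00102). Ptk2b, the kinase Pyk2, was higher by 1.69 ± 0.25 in KO and 1.26 ± 0.25 in WT. Parvb, another parvin, was at 0 reads in both KO pre-cDC2 libraries and had 89, 91 and 56 reads in KO pre-cDC1, so it was at least 26-fold lower in KO pre-cDC2 (adjusted p = 0.000687). Without WT pre-cDC2 replicate 2, 2 were called higher and 1 lower in WT for restraint, and for adhesion signalling 1 higher and 3 lower in WT and 4 higher and 5 lower in KO.

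Of 16 integrin ligands, 9 were tested: 4 were called higher and 2 lower in pre-cDC2 in KO, and 1 higher and 1 lower in WT, with the same counts without WT pre-cDC2 replicate 2. Cdh1, E-cadherin and the ligand of the CD103 receptor, was high in the cell type where Itgae was low: it had 501 and 248 reads in KO pre-cDC2, 141 and 394 in WT pre-cDC2, 4, 0 and 0 in KO pre-cDC1, and 15, 2 and 17 in WT pre-cDC1. It passed the test in KO (adjusted p = 0.00243) and not in WT (adjusted p = 0.0912). Icam2, a ligand of LFA-1, was higher in pre-cDC2 by 2.67 ± 0.43 log2 in KO (adjusted p = 0.00245) and 2.12 ± 0.43 in WT (adjusted p = 0.0129). Spp1, osteopontin, was lower by -1.22 ± 0.24 in KO (adjusted p = 0.00627) and -2.16 ± 0.24 in WT (adjusted p = 0.000583). Lrrc32, the protein GARP that holds latent TGF-beta at the surface, had 21 and 31 reads in KO pre-cDC2, 470 and 44 in WT pre-cDC2, 1, 0 and 0 in KO pre-cDC1, and 44, 14 and 68 in WT pre-cDC1. Between the genotypes 0 genes of the activation, restraint, adhesion signalling and ligand lists were called in either cell type by limma. Without WT pre-cDC2 replicate 2, the Lrrc32 difference of KO from WT in pre-cDC1 was -6.48 ± 0.98 log2. Leaving out that library changes the shared spread and not the pre-cDC1 libraries compared. The value depends on how reads of 0 enter the log2, since the KO pre-cDC1 libraries had 1, 0 and 0 reads.

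Genes with a pattern like that of a subunit were sought for Itgam and Itgae, the subunits whose group means differed by at least 2 log2 RPKM. The measure was the root mean square difference of log2 RPKM over the 10 libraries after each gene was centred on its own mean, over 14778 other tested genes. The pattern most like that of Itgam was that of Gpr183, an oxysterol receptor that guides dendritic cells in the spleen, with a root mean square difference of 0.23 log2, followed by BE692007 with 0.31. For Itgae the nearest were Qpct, glutaminyl cyclase, with 0.69, and AU015336 with 0.74. The spread of group means of the other tested subunits was between 0.37 and 1.29 log2 RPKM.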

How the data were processed

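RNA of sorted splenic pre-cDC2 and pre-cDC1 was amplified with SMARTSeq v2 and sequenced as paired ends, per the labels' protocols, in 10 libraries of 4 groups. The deposited values are log2 RPKM per gene. The submitters' processing notes name STAR 2.3, featureCounts 1.5.0, R 3.3.3, edgeR without a version, and the builds GRCm38 and mm10. Neither the annotation release nor the strand setting was stated in the sources used. Amplification from small amounts of RNA adds noise to low values. Whole reads were recovered from the steps of the deposited log2 values with gene lengths of GENCODE M21: for the 49035 genes with a length, all 490350 values came out whole within 0.01 reads. Library totals were 7862449 to 13177686 reads.

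Genes above 0 log2 RPKM in at least 2 libraries (14787) were fitted together with limma 3.58.1 in R 4.3.3, with 4 group means and a trend in the prior variance, which left 6 residual and 3.31 prior degrees of freedom. The test was two-sided, p-values were adjusted over all genes by Benjamini-Hochberg within each of 5 comparisons, and 0.05 was the threshold. An error after ± is an SE for a difference and an SD for a group mean. The procedure was also run on simulated counts, with the same relative spread for every gene and no library standing apart. That run cannot show how the calls fare where a library stands apart, and its outcome is not reported here. Level shares used RPKM back from the log2. The alternatives were the filter, 1 RPKM added before the log2, centring on medians, voom on the recovered reads, a fit of the compared groups only, a replicate block, and leaving out each library.

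The 10 subunits and the gene lists were chosen with earlier results of these data known. Beside the subunits, the text names each other integrin subunit that passed the filter, in each other integrin list up to 4 called genes by smallest p, and the 2 genes nearest in pattern. Some genes that this rule names are not reported here. The promoters are from RefSeq, GRCm38.p6.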

Additional observations from a re-analysis of the deposited data

Results flagged for a closer look

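For 3 genes of the wider integrin lists, KO and WT libraries were apart in both cell types but in opposite directions. Over all genes, KO and WT libraries were apart for 17.2% in pre-cDC1 and for 30.2% in pre-cDC2. The share of all genes apart in both cell types in opposite directions was not counted, so this count has no background beside it. Itgb3 had a KO minus WT difference of 0.68 ± 0.97 log2 RPKM in pre-cDC2 and -3.27 ± 0.79 in pre-cDC1, and the difference between these was 3.95 ± 1.247 (limma adjusted p = 0.85). Rasgrp2 differed by 0.21 ± 0.61 in pre-cDC2 and by -1.98 ± 0.50 in pre-cDC1, and the difference between these was 2.20 ± 0.78 (adjusted p = 0.942). Parvb had 0 reads in both KO pre-cDC2 libraries, against 33 and 3 reads in WT pre-cDC2. Its pre-cDC1 libraries held 89, 91 and 56 reads in KO and 35, 23 and 36 reads in WT. The fitted difference between its genotype differences was -6.45 ± 1.48 (adjusted p = 0.642), a value that depends on how reads of 0 enter the log2. None of these 3 tests of a difference between cell types passed the threshold. Groups held 2 or 3 libraries, so single libraries were not tested for standing apart within a group.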

How the results depend on the processing

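Among the 9 tested subunits, the lower level of Itgae in pre-cDC2 in both genotypes, and in KO the higher Itgam and lower Itgav, kept their calls under all 17 alternatives. The number of genes called between KO and WT was small and moved with most choices, centring being an exception. In pre-cDC1, 4 were called, against 19 with no filter, 18 with a stricter filter (above 1 log2 RPKM in 3 or more libraries), 2 with 1 RPKM added, 0 with voom (1184 at an unadjusted p below 0.05) and 53 in a fit of the compared groups only, where 1 subunit, Itgae, was called. In pre-cDC2, 10 were called, against 177 with no filter, 5 with 1 RPKM added, 4 with voom and 0 in the fit of compared groups (651 unadjusted). In the test of the difference between cell types, 3 were called, against 139 with no filter and 1 each with the stricter filter and with voom, and the value of Itgae turned to -0.39 with 1 RPKM added. Between cell types in WT, 1697 genes were called, against 701 with no filter and 460 in the fit of compared groups, where 1 subunit was called. In KO, 3074 were called, against 1394 with no filter, where 4 subunits were called.

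With the replicate number as a block, 0, 2 and 0 genes were called for the genotypes in pre-cDC1, for the genotypes in pre-cDC2 and for their difference (1242, 1024 and 710 unadjusted). The deviations of same-numbered libraries correlated between -0.03 and 0.031, so no shift shared by number was seen. Whether same-numbered libraries share animals or a batch is not settled by these values. The KO calls of Itgb7 and Itgb1 were lost under the block.

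Leaving out a library leaves a group of 1 or 2, and a lone library is then assumed to vary like the other groups. The counts of genes then ran from 0 to 114 for KO against WT in pre-cDC1, 5 to 1048 in pre-cDC2, 0 to 495 for the difference between cell types, 999 to 2722 for the cell types in WT and 1418 to 3887 in KO. The counts of subunits ran from 0 to 2 for KO against WT in pre-cDC2, 0 to 1 for the difference between cell types, 2 to 7 in WT and 3 to 8 in KO. Without WT pre-cDC2 replicate 3, 1048 genes were called between the genotypes in pre-cDC2 and 114 in pre-cDC1, and without replicate 2 these counts were 48 and 109. Some differences near 0 changed sign. For KO against WT in pre-cDC1, Itgav ran from -0.13 to 0.087, Itgb1 from -0.12 to 0.0016 and Itgb2 from -0.13 to 0.036. In pre-cDC2, Itgam ran from -0.20 to 0.11, Itga4 from -0.45 to 0.0024 and Itgav from -0.11 to 0.0086. Between cell types in WT, Itgb2 ran from -0.33 to 0.29 and Itgal from -0.30 to 1.02. For the difference between cell types, Itgae ran from -0.24 to 1.07, Itgav from -0.14 to 0.078, Itga4 from -0.12 to 0.33 and Itgax from -0.11 to 0.40. The cause of these changes was not tested.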

Other observations

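The genotype difference averaged over both cell types was added after the data were seen. Itgae was higher in KO by 1.37 ± 0.29 log2 RPKM in this average, with all 5 KO libraries above the WT libraries of their cell type, and missed the threshold (limma adjusted p = 0.114). In pre-cDC2 the nearest KO and WT libraries had 38 reads of Itgae each. Itgam was lower in KO by a log2 difference of -0.70 ± 0.27 (adjusted p = 0.388), and Itgal was higher by 0.50 ± 0.22 (adjusted p = 0.47). Over all genes 16 were called (0.108%), and 0 of the 9 subunits, of which Itgae, Itgam and Itgal had an unadjusted p below 0.05. The number of all genes below that unadjusted p was not counted.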
